A study of Mus musculus with 3 samples.

Results

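The open chromatin of mouse chromosome 13 was described from ATAC-seq, an assay in which a transposase cuts accessible DNA and marks it with sequencing adapters. The members were the regions made by merging all peaks on chromosome 13 that overlapped by at least 1 bp across 4 peak lists. There were 2070 such regions, of 50965 in the whole genome. The chromosome was selected on its background and its region counts, which were lower in both lists of the mutant genotype, so every difference between the genotypes given for it below is a description, with no test. The smallest overlaps that joined peaks into a region were 1, 8 and 11 bp, and the smallest gaps that kept neighbours apart were 1, 3 and 4 bp.

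The cells were pre/pro-B-cell lines, obtained by transforming mouse bone marrow with a retrovirus that carries the oncogene BCR-ABL(p185). All lines therefore shared this oncogene. The wildtype lines (WT) carried unaltered *Cdk6* on both copies, and the K43M lines carried on both copies the allele whose product has no kinase activity (*Cdk6* KM/KM). There were 2 lines per genotype and 1 library per line. WT replicate 2, K43M replicate 1 and K43M replicate 2 are named by their labels. The other wildtype list, called WT unnumbered, has no label of its own and is placed in its group by its name and the design text, which says that a wildtype line came from an earlier submission and was analysed again. With 2 lines per genotype, a difference between the genotypes cannot be told apart from one between the lines. The labels do not give the age of the mice. A point mutation leaves no mark in a peak list, so the allele itself was not checked.

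CDK6 is a cyclin-dependent kinase that drives the cell cycle through its kinase activity and also acts on transcription at chromatin. Open chromatin marks promoters, where transcription starts, and enhancers and other elements that transcription factors bind. Mouse chromosome 13 carries the large *Hist1* cluster of replication-dependent histone genes, and with it many genes used by B-cell precursors, among them *Irf4*, *Sox4*, *Syk* and *Mef2c*.

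Sequences of 201 bases around the summits of 6 regions are shown because the accounts below return to them: the best ranked regions seen in only one genotype, and the best promoter of the gene lists that was lost, gained or kept. They come from the GRCm38.p6 reference, plus strand, and capitals mark the motifs found by a search of both strands.
WT-only region 1: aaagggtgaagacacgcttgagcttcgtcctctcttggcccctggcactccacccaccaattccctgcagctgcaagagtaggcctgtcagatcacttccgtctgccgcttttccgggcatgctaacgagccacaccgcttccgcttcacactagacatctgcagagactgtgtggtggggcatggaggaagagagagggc
WT-only region 2: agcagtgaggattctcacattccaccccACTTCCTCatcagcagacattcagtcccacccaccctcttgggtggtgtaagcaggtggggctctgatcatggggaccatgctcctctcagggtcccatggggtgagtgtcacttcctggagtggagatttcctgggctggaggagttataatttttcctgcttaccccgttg
K43M-only region 1: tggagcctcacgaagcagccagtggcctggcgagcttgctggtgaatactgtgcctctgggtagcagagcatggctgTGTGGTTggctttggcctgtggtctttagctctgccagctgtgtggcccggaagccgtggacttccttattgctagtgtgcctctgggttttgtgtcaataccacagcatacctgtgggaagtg
*Cplx2* promoter: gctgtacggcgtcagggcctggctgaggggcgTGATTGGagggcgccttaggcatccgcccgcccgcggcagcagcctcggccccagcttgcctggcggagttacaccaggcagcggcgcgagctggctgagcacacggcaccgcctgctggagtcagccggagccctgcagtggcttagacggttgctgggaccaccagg
*Il6st* promoter: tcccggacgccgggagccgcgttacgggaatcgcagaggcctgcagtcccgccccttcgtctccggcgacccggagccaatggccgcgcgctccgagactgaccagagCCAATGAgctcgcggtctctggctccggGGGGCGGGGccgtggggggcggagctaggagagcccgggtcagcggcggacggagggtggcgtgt
*Hmgcs1* promoter: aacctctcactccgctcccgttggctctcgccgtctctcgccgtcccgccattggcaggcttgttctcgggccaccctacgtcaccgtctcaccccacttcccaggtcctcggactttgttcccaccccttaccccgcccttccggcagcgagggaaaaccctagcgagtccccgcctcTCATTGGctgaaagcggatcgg
These lie at chr13:35189113-35189313, chr13:95261562-95261762, chr13:95553917-95554117, chr13:54371376-54371576, chr13:112463929-112464129 and chr13:119690125-119690325 in the same order. WT-only region 1 held none of the motifs searched. WT-only region 2 held the PU.1 motif GAGGAAGT on the minus strand, K43M-only region 1 the RUNX motif TGTGGTT, and all of the 3 promoters an NFY motif (CCAATCA or CCAATGA). The *Il6st* promoter also held the SP1 motif GGGGCGGGG. The promoters were richer in G and C, at 71.1%, 74.1% and 64.7%, than the other 3 sequences, at 58.2%, 54.7% and 56.7%.

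Throughout, 4 values in a row belong to WT unnumbered, WT replicate 2 and K43M replicates 1 and 2, in this order. The lists had 33038, 34248, 39038 and 34752 peaks. Genome-wide background was between 48.4 and 65.3 read ends per 10 kb, lowest in K43M replicate 2. Of 8 B-lineage marker genes, 6 had a promoter peak in all 4 lists and *Cd79b* and *Rag1* in 3 of 4, K43M replicate 2 being the list without. None of 4 T-cell markers had a promoter peak in any list, and 3 of 4 myeloid markers had none. The other myeloid marker, *Lyz2*, had a peak in both WT lists.

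Chromosome 13 held 1470 and 1457 peaks in the WT lists and 1411 and 1223 in the K43M lists. These were 4.58%, 4.38%, 3.72% and 3.63% of the autosomal peaks of each list. The K43M mean was 0.80 percentage points below the WT mean, and the lists did not overlap by genotype. The peaks covered 762, 716, 689 and 571 kb of the chromosome in the same order. Their median width, between 376 and 387 bp, varied little.

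Regions found in every list had higher peaks than those found in only one genotype. This is partly by construction, because such regions had to be called in all 4 lists. Of the 2070 regions, 813 had a peak in all 4 lists and are called kept, which is 39.3% against 41.3% of autosomal regions. Another 174 had a peak in both WT lists and neither K43M list (WT-only), which is 8.41% against a background of 4.54% over all autosomes. The reverse, K43M-only, held for 99 regions, or 4.78% against a background of 7.62%. Since these classes follow the contrast for which the chromosome was picked, nothing is read from their counts. WT unnumbered alone had 213 regions, WT replicate 2 alone 163, K43M replicate 1 alone 167 and K43M replicate 2 alone 96. The median summit pileup, the number of read ends stacked at a peak's highest point, was 42, 38, 31 and 24 at kept regions in the 4 lists. It was 17 and 15 at WT-only regions and 15 and 13 at K43M-only regions.

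Per 100 kept regions, chromosome 13 had 21.4 WT-only and 12.2 K43M-only regions. The other 18 autosomes ranged from 6.38 to 23.6 WT-only regions, with a median of 9.61, and the highest value belonged to chromosome 18. Without chromosomes 12 and 18 the highest was 13.5. For K43M-only regions the other autosomes ranged from 12.4 to 23.3, so chromosome 13 lay just below all of them. WT-only counts per 100 kept became 39.5 without WT unnumbered, 46.7 without WT replicate 2 and 32.6 without K43M replicate 1, because fewer lists had to hold or lack a peak. K43M-only counts became 19.3 without WT replicate 2, 23.4 without K43M replicate 1 and 29.6 without K43M replicate 2.

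Background and peak height were both lower in the K43M lists on this chromosome, and the fold enrichment given by the peak caller was lower by a smaller amount. Background here is the local expected number of read ends at a summit, recovered from the values of the peak caller, and it includes reads of the peak itself. Each list was scaled to the median of its own kept autosomal regions. On this log2 scale the median background at the 813 kept regions was 0.05 and -0.01 in the WT lists and -0.43 and -0.50 in the K43M lists. K43M minus WT was -0.49 ± 0.046 (pooled SD, 2 lists per genotype). The median summit pileup was 0.11, 0.08, -0.29 and -0.37, a difference of -0.42 ± 0.040. The median fold enrichment was 0.08, 0.07, 0.01 and -0.01, a difference of -0.07 ± 0.012. Fold enrichment is the ratio of pileup to background with a small constant added to both, so it falls when both fall by the same factor. Pileup was lower by less than background, so no lower plain ratio of pileup to background is read from it. The other autosomes had background differences between -0.44 on chromosome 18 and 0.16 on chromosome 5, and fold enrichment differences between -0.02 and 0.03, so that chromosome 13 lay below all of them in both.

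Over every peak of each list rather than kept regions only, an alternative chosen after the data had been seen, the differences were smaller: -0.26 for background and -0.15 for pileup. The fold enrichment difference then turned to 0.05. In read ends per 10 kb the median background of all peaks on chromosome 13 was 136, 118, 97 and 87, against 146, 126, 120 and 119 on the other autosomes. In a bulk library, fewer cells with a site open and fewer cuts per cell cannot be told apart. Background and pileup were lower together, and the part of the amount of DNA from this chromosome in these differences was not tested.

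Region by region, background was lower in both K43M lists than in both WT lists at 548 of the 813 kept regions (67.4%), against 27.2% over all autosomes. It was higher in both at 71 (8.73%), against 27%. Pileup was lower at 427 (52.5%, background 22.5%) and higher at 99 (12.2%, background 26.7%). Fold enrichment was lower at 213 (26.2%, background 21.1%) and higher at 141 (17.3%, background 21.3%).

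The regions were then mapped in 25 windows of 5 Mb, numbered from the start of the chromosome. The shortfall of regions in the K43M lists lay toward the start. Window 5 (20 to 25 Mb) held 124, 121, 88 and 78 regions. Window 7 (30 to 35 Mb) held 99, 99, 53 and 49, the lowest K43M to WT ratio of the windows with at least 5 kept regions, at 0.52. Both windows had 26 WT-only regions each, against 2 and 1 K43M-only regions. Window 18 (85 to 90 Mb) had the highest ratio, 1.71, with 14, 14, 27 and 21 regions, and no WT-only region. Both K43M lists had fewer regions than both WT lists in 10 windows, 41.7% of the 24 that had a background value beside a genome background of 9.28%. They had more in 4 of the 24, against 197 of 450 windows of the other autosomes.

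**Figure D1:**
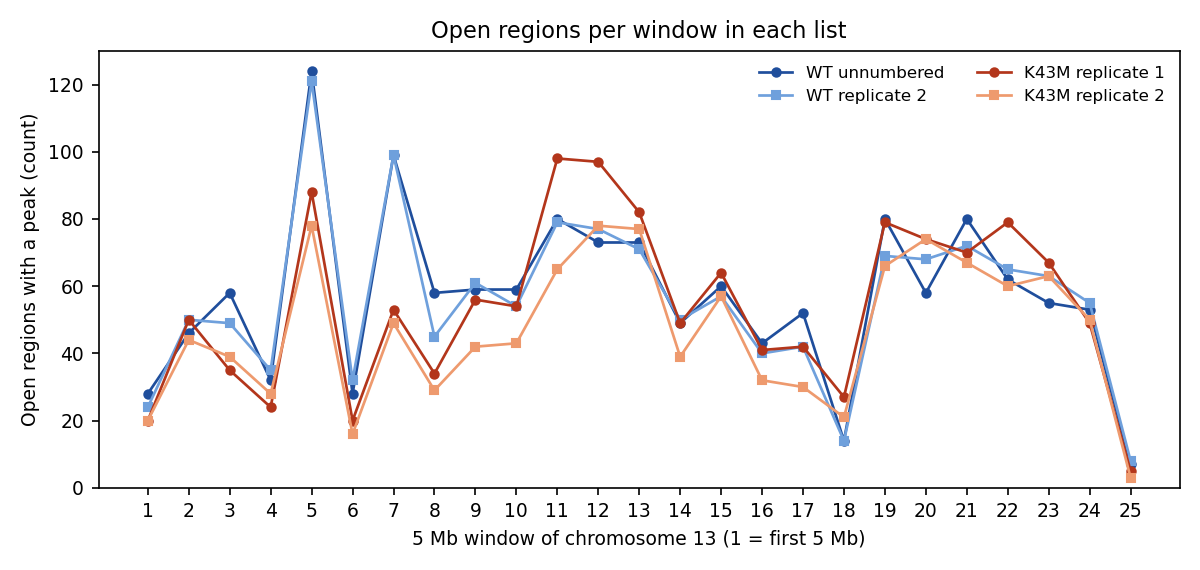
Number of open regions with a peak in each 5 Mb window of chromosome 13 (x axis, window number) in each of the 4 lists (lines). In window 7 both WT lists hold 99 regions and the K43M lists 53 and 49, while in windows 12 and 13 the K43M lists lie above the WT lists.

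Background also differed most toward the start, though not window by window in the order of the region counts. Window 18, with the highest ratio of regions, had a background difference of -0.60, and window 11, with a ratio of 1.03, had -0.62. Background was lower in both K43M lists in 21 of the 24 windows with a value (87.5%), against 28.1% of windows over all autosomes. It was higher in both in 1, window 20, against 128 of 450 windows of the other autosomes. The K43M minus WT difference ranged from -0.99 in window 7 to 0.23 in window 20. In read ends per 10 kb, window 7 had a median background of 140 and 131 in the WT lists and 67 and 58 in the K43M lists. Window 20 (95 to 100 Mb) had 140 and 134 against 169 and 128, so that the raw values overlap and only the scaled ones do not. That window had 15 K43M-only and 4 WT-only regions. The lists of one genotype differed by a median of 0.09 (WT) and 0.18 (K43M) per window and by at most 0.30 and 0.52, the latter in window 4.

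**Figure D2:**
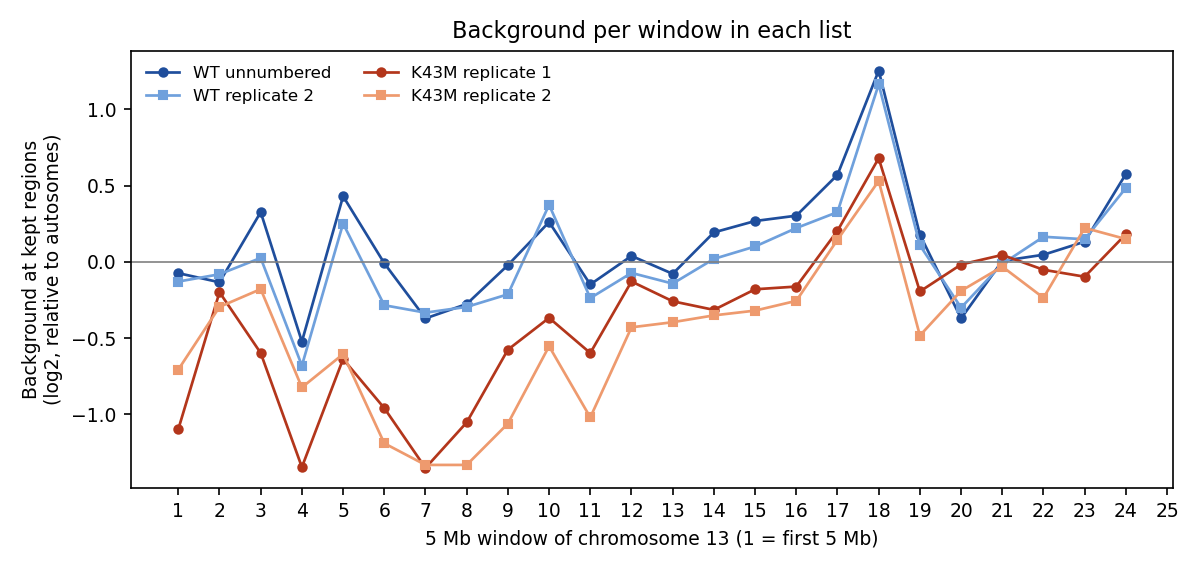
Median background at kept regions in each 5 Mb window of chromosome 13, on a log2 scale relative to the autosomal median of the same list, for the 4 lists. The K43M lists lie below the WT lists in 21 of 24 windows, with the widest gap in windows 5 to 8, and do not lie below them in windows 20, 21 and 23.

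A difference of -0.5 or lower was seen in 10 of the 24 windows of chromosome 13 and in 12 of 450 windows of the other autosomes (2.67%). Of the 20 lowest autosomal windows, 10 were on chromosome 13 and 6 on chromosome 18. The lowest of all, -1.10, was window 10 of chromosome 1, which rests on 5 kept regions. Across the 24 windows the background difference went with the pileup difference (Pearson r = 0.86, Spearman rho = 0.88) and with the ratio of region counts (Spearman rho = 0.71). These windows share libraries and peaks, so the correlations are descriptions.

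Stretches of neighbouring windows, drawn after the values had been seen, sum this up. In windows 5 to 11 (20 to 55 Mb) the lists held 507, 491, 403 and 322 regions. These windows had 83 WT-only and 16 K43M-only regions beside 249 kept, and a background difference of -0.87. Kept regions there had a median pileup of 40 and 35 in the WT lists and 24 and 17 in the K43M lists, so the levels did not overlap. Windows 1 to 4 had a background difference of -0.55, with 26 WT-only and 6 K43M-only regions. In windows 12 to 19 (55 to 95 Mb) it was -0.34, with 40 regions of each class and 444, 420, 481 and 400 regions in the lists. In windows 20 to 25 it was -0.13, with 25 WT-only and 37 K43M-only regions, 315, 331, 344 and 317 regions in the lists, and median pileups of 41, 36, 38 and 31. Fold enrichment differed by -0.18 in windows 5 to 11 and by -0.07, -0.05 and -0.02 in the other stretches.

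**Figure D3:**
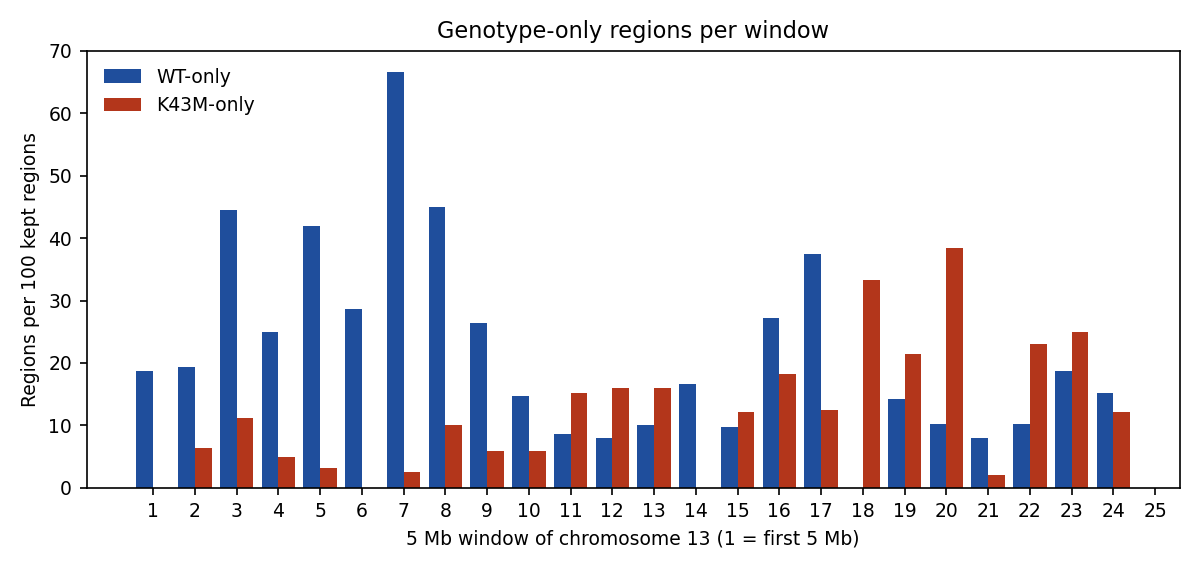
WT-only (blue) and K43M-only (red) regions per 100 kept regions in each 5 Mb window of chromosome 13, drawn where a window has at least 5 kept regions. WT-only bars are the taller in windows 1 to 10, where K43M-only bars are low, and K43M-only bars are the taller in 9 windows, namely 11 to 13, 15, 18 to 20, 22 and 23.

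The region classes also differed in width, place and sequence. Kept regions were wider, with a median of 769 bp, against 331.5 bp for WT-only and 367 bp for K43M-only regions. The part of width in the shares below was not tested. Of the kept regions, 436 lay in a promoter window, that is from 2000 bp before to 200 bp after a transcription start (53.6%, 95% Wilson interval 50.2 to 57.0). Of the WT-only regions 37 did (21.3%, 15.8 to 27.9), and of the K43M-only regions 19 (19.2%, 12.6 to 28.0). The other WT-only regions lay between genes (73), in introns (53) or in exons (11), and the other K43M-only regions in 38, 34 and 8. On the other autosomes the promoter shares were 52.6%, 15.6% and 24.5%. Median GC content around the summit was 54.2% in kept, 48.8% in WT-only and 50.2% in K43M-only regions. The RUNX motif TGTGGTT was in 30 WT-only regions (17.2%), 11 K43M-only regions (11.1%) and 68 kept regions (8.36%), with 9.72% of all autosomal regions and 13.9% of all autosomal WT-only regions holding it. The PU.1 motif GAGGAAGT was in 22 (12.6%), 7 (7.07%) and 53 (6.52%), with 6.92% over all autosomal regions and 8.78% over autosomal WT-only regions. The NFY motifs ran the other way, at 5.75%, 9.09% and 12.2%, with 6.79% over all and 5.48% over autosomal WT-only regions. The CTCF pattern was in 8.05%, 4.04% and 4.31%, with 8.95% over all. In each of the 3 classes the ETS (CCGGAAGT), SP1 (GGGGCGGGG), NRF-1, AP-1 (TGANTCA) and EBF patterns were in between 0% and 10.1% of the regions, and in between 0.433% and 7.62% over all. A match of letters is no evidence of binding.

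The share of all peaks in promoters was 38.6%, 38.7%, 39.3% and 41.8% on chromosome 13 and 41.1%, 39.8%, 38.1% and 41.1% on the other autosomes. The choice of chromosome did not use this share itself. It rests on the same peaks as the region counts that were used, so the 2 are not independent. Chromosome 13 minus the others was -2.54 and -1.14 percentage points in the WT lists and 1.22 and 0.69 in the K43M lists. The mean was -0.44 ± 1.73 (SD, n = 4 lists), negative in 2 of 4, both WT. This mean pools the genotypes, whose values have opposite signs, and the difference between the genotypes was not tested. An exact sign-flip permutation test over the 4 lists, two-sided, gave p = 0.75. With 4 lists such a test cannot go below 2 of 16 sign patterns, which is above 0.05, so nothing is concluded from it. The difference turned to 0.47 with promoters taken as 500 bp either side of a start and to 0.26 without WT unnumbered.

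Among single regions, WT-only region 1 (chr13:35189022-35189724), in an exon of the non-coding gene *1700019C18Rik*, had the best rank, with pileups of 62 and 53 and fold enrichments of 12.4 and 14.4. The nearest K43M peak was 57206 bp away. Region 2 (chr13:95261464-95261971), between genes and 11128 bp from the start of *Pde8b*, a phosphodiesterase that degrades cyclic AMP, had pileups of 38 and 40. The next regions lay near *Arrdc3*, in introns of *Edaradd*, *Cdkal1*, *Nid1* and *Gng4*, in an exon of *Slc17a4*, near *Ercc6l2*, and in the non-coding *Gm29675*, 36858 bp from *Irf4*. That in *Gng4* was only 101 bp from a K43M replicate 1 peak. Over all WT-only regions the median distance to a K43M peak was 11606.5 bp, and 33 of 174 had one within 1000 bp.

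K43M-only region 1 (chr13:95553644-95554231), between genes near *F2rl1*, a protease-activated receptor, had pileups of 36 and 33 and fold enrichments of 12.2 and 11.9. The next 4 lay in an intron of *Ssbp2*, in the promoter of the amino acid transporter *Slc38a9*, in an intron of *Mtrex* and in a promoter window of *Mef2c*. The last was 593 bp from a WT replicate 2 peak, and 8 of the 99 K43M-only regions had a WT peak within 1000 bp. The best kept regions included the promoter of *Hmgcs1*, an intron of *Gm36264*, the promoter of *Gm15287* and an intron of *Jarid2*. The *Gm36264* region had pileups of 88, 84, 84 and 90 in the 4 lists, and the *Jarid2* region 112, 96, 81 and 90.

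Promoters were then followed gene by gene. Of 838 protein-coding genes of chromosome 13, 414 had a promoter peak in all 4 lists (49.4%, against 48.8% over all autosomes), and 349 had none. A promoter peak was lost, meaning present in both WT lists and in neither K43M list, at 16 genes (1.91%, against a background of 0.533%). It was gained at 8 (0.955%, background 1.98%), and 51 genes had another pattern. Other autosomes had between 1 and 13 lost genes each. Lost genes numbered 29 without K43M replicate 1, and gained genes 20 without K43M replicate 2, since a single K43M list then had to lack or hold a peak. Of the 16 lost genes 12 lay in windows 5 to 11, beside 1 of the 8 gained. This stretch, drawn after the values had been seen, holds 344 of the 838 genes.

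Few of the lost promoters had been strong, and some of the strongest are lost only in that a peak no longer reaches the promoter window. At 13 of the 16 lost genes no K43M list had a peak anywhere in the region of the best promoter peak, and at 3 at least 1 K43M list did. The pileups below are WT unnumbered first and WT replicate 2 second, and no K43M peak touched the promoter window. *D930007J09Rik* had the best rank, at 86 and 60. This is the promoter peak of *Wrnip1*, which was kept with 37 and 30 in the K43M lists, peaks that did not reach the window of *D930007J09Rik*. *Cplx2* (chr13:54371349-54383917), a regulator of vesicle fusion at synapses whose promoter sequence is given above, had 48 and 46, and K43M replicate 1 had a peak in the same region outside the window. *Foxf2*, a forkhead factor of mesenchymal tissues, had 37 and 30, in a region where both K43M lists had a peak outside the window. *Gcm2*, a factor of the parathyroid, had 22 and 16. *Dok3*, an adaptor that dampens B-cell receptor signalling, had 31 and 19. The histone gene *Hist1h2af* had 35 and 46, on a background of 541 and 500 read ends per 10 kb. *Ptpdc1* had 16 and 20, the aldo-keto reductase gene *Akr1c12* 36 and 13, and *Serpinb6b* 17 and 13. A trio of zinc-finger genes in window 5 was also lost: *Zkscan3* (24 and 12), *Zscan26* (19 and 13) and *Zkscan4*. *Hfe*, a regulator of iron uptake, had 15 and 11. *Trim38*, *Ankrd55* and *Nim1k* complete the set, with WT pileups between 9 and 22. Apart from the first 2 genes, *Foxf2* and *Hist1h2af*, at least 1 WT list had a pileup of 22 or less.

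At none of the 8 gained genes did a WT list have a peak in the region of the best promoter peak. They are given as K43M replicate 1 and K43M replicate 2, with no WT peak in the promoter window. *Il6st* (chr13:112464070-112510086), the gp130 receptor chain shared by interleukin-6 family cytokines, had 26 and 23. *Itga1*, a collagen-binding integrin chain, and *Gm49395* both had 30 and 17. *Arhgef28* had 20 and 13, the calcium channel gene *Ryr2* 16 and 12, *Golm1* 17 and 17, *Sncb* 9 and 8 and *Rhobtb3* 20 and 7. Apart from *Il6st*, every gained gene thus had a pileup of 17 or less in at least 1 K43M list.

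At promoters open in all lists, peak height was mostly lower in the K43M lists, and how much depended on the window. Pileups of single genes are read ends not scaled for depth. Differences, and counts of lower or higher genes, use scaled pileups. Of the 414 kept genes, which use 349 different peaks, 243 had a lower scaled pileup in both K43M lists than in both WT lists (58.7%, against 20.2% over all autosomes) and 27 a higher one (6.52%, against 25.6%). The median difference was -0.33 over these genes and 0.03 over 10154 kept autosomal genes. In windows 5 to 11 the median was -0.69, with 125 of 139 genes lower and 0 higher. In windows 20 to 25 it was -0.09, with 28 of 82 lower and 14 higher. The lowest window medians were in windows 6 (-0.97, 3 genes), 7 (-0.92, 15 genes) and 5 (-0.87, 53 genes).

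**Figure D4:**
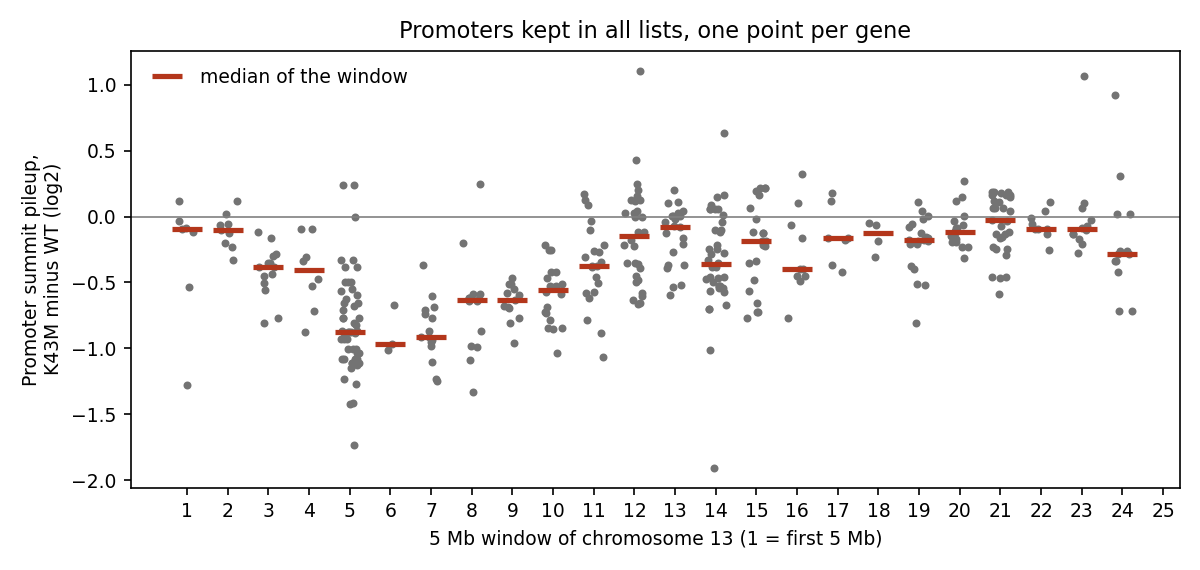
K43M minus WT difference of the scaled promoter summit pileup (log2) for each of the 414 protein-coding genes with a promoter peak in all 4 lists (grey points), by 5 Mb window, with the window median (red bar). Medians lie between -0.97 and -0.37 in windows 5 to 11 and between -0.14 and -0.03 in windows 12, 13 and 20 to 23. Windows 3, 4 and 16, with -0.39, -0.41 and -0.40, fall in the range of windows 5 to 11.

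The *Hist1* genes, which supply histones for newly made DNA in S phase, had the lowest values of the gene lists. Of 54 protein-coding *Hist1* genes, 41 were kept, on 25 different peaks, 1 was lost and none gained. The median difference of the kept genes was -0.87. Of these, 38 were lower in both K43M lists (92.7%, against 58.7% of all kept genes of the chromosome) and 0 higher (against 6.52%). All of them lie in window 5, where 50 of the 53 kept genes were lower, with a median of -0.87. The low values were thus shared by the window and not particular to the histone genes. *Hist1h3b* had pileups of 49 and 56 in the WT lists and 23 and 14 in the K43M lists. *Hist1h1c*, a linker histone gene, had 66 and 51 against 30 and 17. *Hist1h2br* and *Hist1h4n*, with the same values, had 18, 13, 21 and 13. The cluster spans chr13:21715763-23934851 and held 91 regions, of which 43 were kept, 12 WT-only and 0 K43M-only. Its scaled background was 0.65 and 0.60 in the WT lists and -0.42 and -0.40 in the K43M lists. Histone gene copies are near-identical, and the authors kept only reads with a single position, so reads of the coding parts may be missing in all lists.

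Of 31 B-lineage and immune genes, 17 were kept, with a median of -0.47. Of these 12 were lower in both K43M lists (70.6%, against 58.7% of all kept genes of the chromosome) and 2 higher (against 6.52%). *Irf4* (chr13:30749226-30766976), a transcription factor of lymphocyte maturation, had promoter pileups of 43 and 46 in the WT lists and 26 and 22 in the K43M lists. *Syk*, the kinase that relays pre-B-cell receptor signals, had 34 and 29 against 19 and 23. *Serpinb9*, an inhibitor of granzyme B, had 58 and 54 against 30 and 19. All of these lie in windows 7 and 11. Their WT and K43M values did not overlap before or after scaling, and the scaled differences were -0.77, -0.46 and -1.10. In window 21 *Pik3r1*, the regulatory subunit of PI3-kinase, had 85 and 80 against 97 and 75. *Mef2c* (window 17), a factor of B-cell development, had 93 and 81 against 76 and 65, a scaled difference of -0.18. *Dok3* was lost, *Il6st* and *Itga1* gained, and *Serpinb1a*, *F2r* and *Itga2* were partly present. The remaining 8 had no promoter peak.

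Of 31 transcription and chromatin factors, 17 were kept with a median of -0.11. Of these 9 were lower in both K43M lists (52.9%, against 58.7% of all kept genes of the chromosome) and 2 higher (against 6.52%). *Sox4* (chr13:28948919-28953713), needed for early B-cell development, had 72 and 55 in the WT lists and 29 and 30 in the K43M lists. *E2f3*, a cell cycle transcription factor, had 106 and 99 against 60 and 58. *Jarid2*, a partner of the Polycomb complex PRC2, had 85 and 75 against 53 and 33, and the chromatin protein gene *Dek* 53 and 51 against 35 and 25. These 4 lie in windows 6, 9 and 10. *Klf6* in window 2 had 97 and 81 against 83 and 69, a scaled difference of -0.10. *Foxf2* was lost, *Foxc1*, *Otp* and *Phf2* were partly present, and 10 had no promoter peak.

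Of 29 cell cycle and genome maintenance genes 26 were kept, none lost and none gained, with a median of -0.13. Of these 13 were lower (50%, below the 58.7% of the chromosome) and 4 higher (against 6.52%). *Gmnn*, the inhibitor of replication licensing, had 54 and 54 in the WT lists and 27 and 27 in the K43M lists, and lies in window 5. *Ccnb1*, the mitotic cyclin B1, had 91 and 83 against 73 and 70, and *Cdk7*, the CDK-activating kinase, 72 and 53 against 83 and 45. Both lie in window 21. *Plk2*, *Gadd45g* and *Ptch1* were partly present. *Ptch1* had 65, 64 and 66 in the first 3 lists and no peak in K43M replicate 2.

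Of 28 mitochondrial and metabolic gene entries, with *Nnt* entered more than once, 27 were kept and 1, *Hk3*, had no peak. The median of the kept entries was -0.16. Of these 14 were lower (51.9%, below the 58.7% of all kept genes of the chromosome) and 0 higher (against 6.52%). Components of the respiratory chain differed by place. *Uqcrfs1*, the Rieske protein of complex III, in window 7, had 54 and 43 in the WT lists and 29 and 26 in the K43M lists, a scaled difference of -0.68. *Sdha* of complex II, in window 15, had 52 and 63 against 52 and 41, a difference of -0.18. *Ndufs6* and *Ndufs4* of complex I had -0.13 and -0.27, and *Cox7c* of complex IV -0.31. *Hmgcs1*, an enzyme of sterol synthesis near the end of the chromosome, had pileups of 152, 140, 144 and 128, a scaled difference of 0.02. The methionine synthase gene *Mtr* in window 3 had 85 and 79 against 42 and 44.

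**Figure D5:**
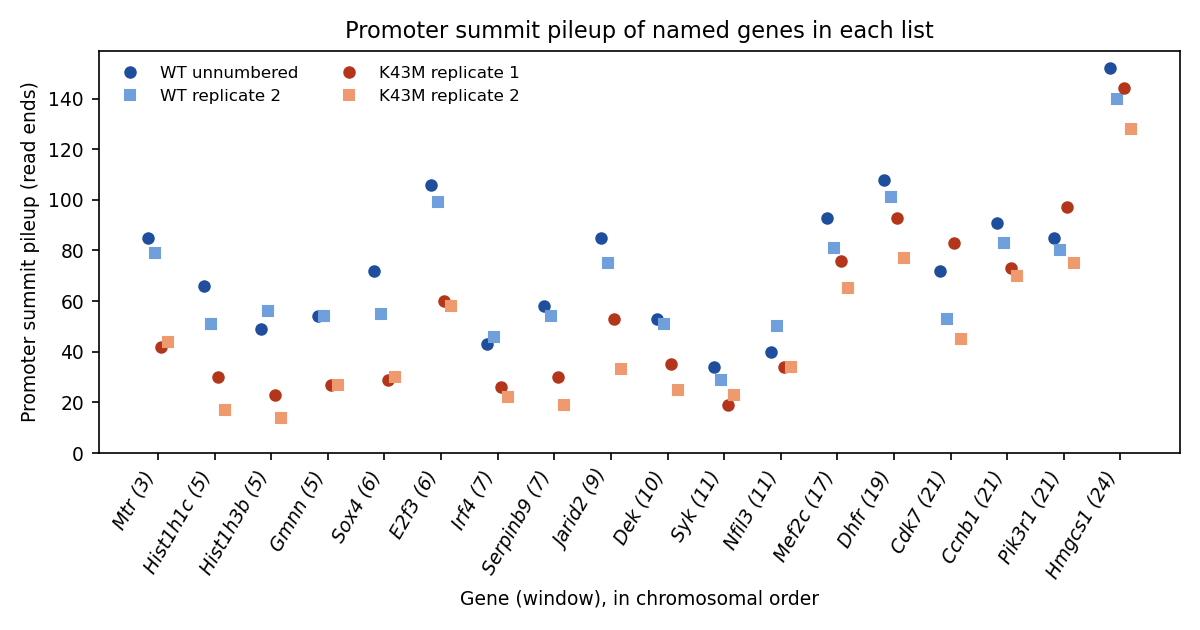
Summit pileup (read ends, not scaled for depth) of the promoter peak of 18 named genes in each of the 4 lists, in chromosomal order with the window number in brackets. From Mtr to Syk the WT points lie above the K43M points, and at Cdk7, Pik3r1 and Hmgcs1 the points of the genotypes overlap.

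Of 28 signalling, trafficking and housekeeping genes, 23 were kept with a median of -0.21, and *Phactr1* and *Plpp1* were partly present. Of the kept genes 11 were lower (47.8%, below the 58.7% of the chromosome) and 0 higher (against 6.52%). *Psmg4*, a proteasome assembly factor in window 7, had 54 and 45 in the WT lists and 16 and 23 in the K43M lists. *Gdi2* in window 1, a regulator of Rab proteins, had 70 and 74 against 83 and 62. Of 20 genes of other tissues none was kept and 16 had no promoter peak in any list. *Cplx2* was lost and *Ryr2* gained, while *Drd1* had a peak in K43M replicate 1 alone (14) and *Actn2* in K43M replicate 2 alone (8).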

How the data were processed

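ATAC-seq peaks of 4 libraries were used, 2 per genotype. Per the labels and the study's methods, the authors trimmed reads with Trimmomatic 0.36, mapped them to mm10 with BWA 0.7.15, dropped blacklisted and multiply placed reads and called peaks per library with MACS2 2.1.0. The deposited values are a fold enrichment (ratio) of summit signal over local background, with a -log10 p-value and a -log10 q-value per peak. Depth is known only from these values: whole summit pileups and background were recovered from fold enrichment and -log10 p by the caller's Poisson model, for all but 2 peaks of each list. The number of read ends limits the precision of single peaks. Intervals cover counting error only.

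Peaks overlapping by 1 bp were merged. Promoters followed GENCODE release 21 on GRCm38, whose chromosome matches the mm10 coordinates. The rank of a region was its worse within-list percentile by -log10 q. Genes named were the members of fixed lists, up to 12 lost or gained genes by rank, 10 WT-only, 5 K43M-only and 5 kept regions, and extreme windows, and some items are not reported here. Chromosome, lists and rules were chosen with earlier results of these data known. With 2 lists per genotype, values are given per list, and no genotype test was made; replicates are separate lines. Simulated pileups (4000) and regions (2000) were recovered at 100%. Python 3.11.15, numpy 2.4.6, pandas 2.3.3, scipy 1.17.1 and pysam 0.24.0 were used.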

Additional observations from a re-analysis of the deposited data

How the results depend on the processing

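The alternatives changed the q threshold, the number of peaks, the overlap, the background minimum, the promoter window, the transcripts, the window size and the chromosomes or lists included. Of the 96 recomputed values, 76 stayed within the spread of the lists or within 1.5 times a count. With the best 30000 peaks of each list the fold enrichment difference was -0.0558. Without chromosomes 12 and 18 the difference in peak share was -0.916 percentage points. Over every peak of each list, added after the data were seen, background, pileup and fold enrichment differences were -0.263, -0.150 and 0.0515. With 500 bp promoters the promoter share difference was 0.473. The cause of these shifts was not tested.

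Leaving out 1 list at a time gave 22.6 to 46.7 WT-only and 15.2 to 29.6 K43M-only regions per 100 kept, by construction since fewer lists must have or lack a peak. It gave -0.517 to -0.433 for background, -0.491 to -0.408 for pileup, -0.0858 to -0.0480 for fold enrichment, -0.902 to -0.699 points for peak share, 20 to 22 windows, 18 to 29 lost genes, 10 to 20 gained genes and -0.995 to 0.259 points for promoter share. No paired analysis was possible because the WT lists carry only 1 replicate number in the labels, so the genotypes share fewer than 2 numbers. A missing peak means no call at this depth, not closed chromatin.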

Other observations

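Non-coding genes of chromosome 13 were described in the same classes. Of 414 lincRNA genes, 26 had a promoter peak in all 4 lists, 1 (*Gm5444*) was lost (0.242%, against 0.605% on the other autosomes) and 0 gained (against 1.27%). Of 141 antisense genes 24 were kept, 2 lost (1.42%, against 0.722%) and 0 gained (against 1.62%). Of 97 genes annotated as miRNA 18 were kept, 0 gained (against 1.07%) and 2 lost (2.06%, against 0.307%). The lost genes with this annotation were *Gm44367* and *n-TStga1*, both in the stretch of the histone genes. *Trgj1*, a joining segment of the T-cell receptor gamma locus, had a peak in both WT lists and in neither K43M list. The processed transcript *1700066J03Rik* was the reverse.

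Some kept promoters stood far from their neighbours. They were chosen after their values were seen. *Zfp457* (window 14) had pileups of 49 and 37 in the WT lists and 9 and 12 in the K43M lists, a scaled difference of -1.91, the lowest of the 414 kept genes, where the median of its window was -0.36. *Cmah* (window 5), which encodes the enzyme that makes the sialic acid Neu5Gc, had 50 and 45 against 10 and 17, a difference of -1.74. *Gkap1* (window 12) had 14 and 11 against 24 and 25, a difference of 1.11, the highest. *Snx18* (window 23) had 45 and 16 against 63 and 42, so its lists overlapped although the scaled difference was 1.07. *D13Ertd608e* (window 24) had 14 and 16 against 28 and 24, a difference of 0.92.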
